A study of Mus musculus with 16 samples.

Results

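The lamin A/C peaks that lie in exons and untranslated regions (UTRs) were chosen from the 4 lamin A/C peak lists of adult mouse cardiomyocytes. A peak was taken when its deposited annotation began with Exon or held UTR, when its input height was below 10, and when its nearest gene was not Gata4, Neil2, Mef2c or Tbx5. This gave 291 of 2190 lamin A/C peaks (13.3%), and 56149 peaks of both antibodies were deposited in all. The input limit left out 4 exon or UTR peaks and the gene exclusion left out 42. The nearest members inside the limit were 2 peaks with an input of 9, in Speer4c at a height of 20 and in Gm21083 at a height of 21, and the nearest peak outside was a Speer4c peak of Des+/+ basal with an input of 10 and a height of 22.

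The cells were primary cardiomyocytes from hearts of 3-month-old mice, isolated by perfusion with trypsin and collagenase D. Des+/+ mice carry desmin, the muscle intermediate filament, and Des-/- mice lack it in every tissue. Each genotype was studied without exercise (basal) and after swimming stress (swim), with an antibody against lamin A/C (Millipore MABT 1341) and one against H3K27Ac (Abcam ab4729), each library with its own input. Chromatin of several mice was pooled into 1 library per group, so that no group has a replicate, no difference between groups was tested, and the intervals given cover counting error only. The lists give peaks and heights but no library totals, and heights were therefore read within a list.

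Lamin A and lamin C are splice forms of one gene and build, with the B-type lamins, the filament layer beneath the inner nuclear membrane. Chromatin that touches this layer is mostly gene-poor and silent, although a soluble part of lamin A/C lies in the nuclear interior and meets active chromatin. H3K27Ac marks active promoters and enhancers. A processed pseudogene is a DNA copy of a spliced messenger RNA, inserted at another place in the genome, and so carries the joined exons of its parent gene without the introns. Genes with abundant RNA, such as those of ribosomal proteins, have many such copies in the mouse.

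The exon and UTR peaks fell into 4 classes by the gene whose annotated exons they covered most (GENCODE M21). Processed pseudogenes held 102 of the 291 peaks (35.1%, 95% Wilson interval 29.8 to 40.7%). Protein-coding genes held 140, which divided evenly into 70 of single-copy sequence and 70 of repeated sequence. Sequence was called single-copy when at least 50% of the 32-base words in the 200 bp around the summit occurred once in the genome. Most of the other 49 peaks lay in non-coding transcripts, unprocessed pseudogenes and immunoglobulin segments, with 1 in a polymorphic pseudogene and 1 near Erdr1x on chromosome Y that covered no annotated exon. The gene with the nearest start, which the deposited tables name, was the gene of the exon in 101 of 291 peaks (34.7%). Thus the peaks named for Lrp1b, a lipoprotein receptor gene, lay in the pseudogenes Gm13456 and Gm13461, those named for Mir208a lay in exons of Myh6, and those named for Anapc7 lay in the 3' UTR of Atp2a2.

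Stretches of 30 bases under the peaks are shown here beside the parent, because the copies carry the exons of the parent. They are short parts of the windows, whose identity over the whole match is given with each. All are written 5' to 3' in the sense of the parent transcript, and capitals mark the bases that differ. Copies come from GRCm38 and parents from GENCODE M21 transcripts of the same build. The highest of the exon and UTR peaks, 35 in Des+/+ swim, lay in Gm13456 at chr2:40555861-40555890 (plus strand), a copy of Eef1a1, the translation elongation factor gene on chromosome 9. In the parent the first 10 bases end one exon and the rest begin the next. The window was 99% identical to the parent, and 36.1% of its 32-base words occurred once in the genome.
Gm13456: ggctgctgagatgggaaagggctccttcaa
Eef1a1: ggctgctgagatgggaaagggctccttcaa

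Gm4468 at chr15:99810434-99810463 (minus strand), with a peak of 20 in Des+/+ swim, copies Rpl37, a large-subunit ribosomal protein gene, and the exons of Rpl37 join after base 20. The 2 stretches differ at 1 base. The window was 94% identical to the parent, and 87.6% of its words occurred once, so that it was single-copy by the cut used here.
Gm4468: tgccaagcgcaagagAaagtataactggag
Rpl37: tgccaagcgcaagagGaagtataactggag

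Rps3a3 at chr13:108671155-108671184 (plus strand), with a peak of 17 in Des+/+ swim, copies Rps3a1, a small-subunit ribosomal protein gene whose exons join after base 11. Here too 1 base differs. The window was 99% identical, and 18.9% of its words occurred once.
Rps3a3: gttaataaactgattccagacagcattggT
Rps3a1: gttaataaactgattccagacagcattggG

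Gm8864 at chrX:88572639-88572668 (minus strand), with a peak of 14 in Des+/+ swim, copies the glycolytic enzyme gene Gapdh. This stretch lies within 1 exon of the parent and differs at 1 base. The window was 98% identical, and 38.5% of its words occurred once.
Gm8864: ttgtgatgggtgtgaaccacgagaaCtatg
Gapdh: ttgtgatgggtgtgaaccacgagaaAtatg

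An exon of a muscle gene also had a near copy in the genome. Exon 33 of Myh6, the alpha myosin heavy chain of the adult mouse heart, had a peak of 21 in Des+/+ swim and matched Myh7, the neighbouring beta myosin heavy chain gene, at 98.5% of the summit window. The stretch at chr14:54947122-54947151 (minus strand) differs at 1 base.
Myh6: Cgaaaggaagctggcagagaaggatgagga
Myh7: Tgaaaggaagctggcagagaaggatgagga

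The number of exon and UTR peaks differed widely between lists. Des+/+ swim held 142 among 635 lamin A/C peaks (22.4%, 19.3 to 25.8%), Des-/- basal held 99 among 831 (11.9%, 9.88 to 14.3%), Des-/- swim held 40 among 536 (7.46%, 5.53 to 10.0%) and Des+/+ basal held 10 among 188 (5.32%, 2.91 to 9.51%). The share was highest in Des+/+ swim, and no difference between these single libraries was tested. The list after swimming held more such peaks in Des+/+ and fewer in Des-/-, and the whole lists moved the same way. By label, 222 peaks lay in exons, 63 in 3' UTRs and 6 in 5' UTRs. Of the 291 peaks, 140 lay wholly in annotated exons. Others overlapped an exon only in part, such as a Speer4c peak of 21 in Des+/+ swim with 2.94% of its bases.

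Heights were low throughout. Members ranged from 8, the lowest height deposited, to 14 in Des+/+ basal (median 9.5), to 20 in Des-/- basal (median 10), to 35 in Des+/+ swim (median 10) and to 21 in Des-/- swim (median 8.5). The other lamin A/C peaks under the same limits had medians of 8, 9, 9 and 9 in the same order. Their maxima were 83, 92, 73 and 69, so under these limits the tallest peaks carried no exon or UTR label. Exon or UTR peaks that the input limit left out reached 237 in Des-/- swim (Gm11168, input 181) and 52 in Des-/- basal (Lars2, input 25). Exactly 8 was reached by 39 of 142 members in Des+/+ swim, by 33 of 99 in Des-/- basal, by 20 of 40 in Des-/- swim and by 4 of 10 in Des+/+ basal. Input heights had a median of 2 in each list. The 4 tallest members of Des+/+ swim were 3 pseudogene peaks and a peak of the myoglobin gene Mb. In Des-/- basal coding exons of repeated sequence had the highest median, at 12.

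**Figure D1:**
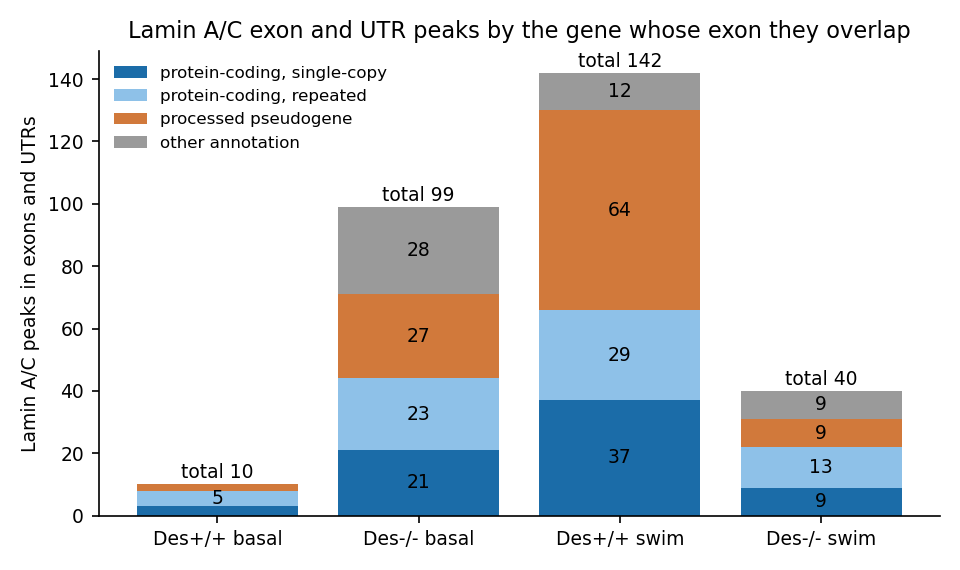
Number of lamin A/C exon and UTR peaks (vertical axis) in each of the 4 lists (horizontal axis), stacked by the class of the gene whose exon they cover. Processed pseudogenes make up 64 of 142 peaks in Des+/+ swim, against 27 of 99 in Des-/- basal and 9 of 40 in Des-/- swim.

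**Figure D2:**
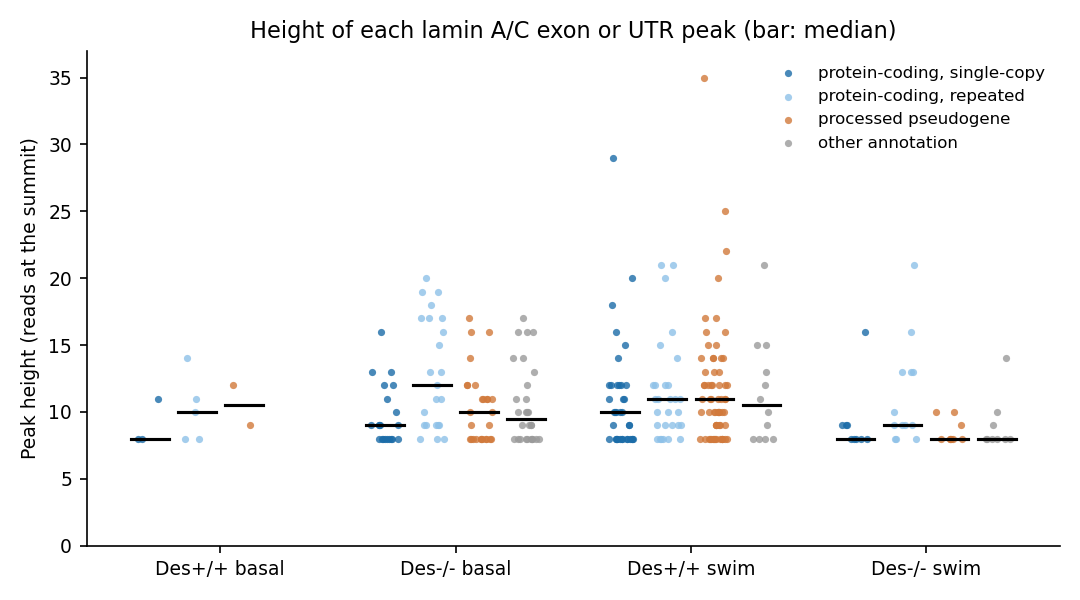
Height of every lamin A/C exon or UTR peak (vertical axis, height of overlapping reads at the peak) by list (horizontal axis) and class (colour), with the median of each class as a black bar. Most points lie between 8 and 15, and the highest are a pseudogene peak at 35 and the Mb 3' UTR peak at 29, both in Des+/+ swim.

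Single-copy exons and 3' UTRs of coding genes held 37 peaks of 30 genes in Des+/+ swim, 21 peaks of 19 genes in Des-/- basal, 9 peaks of 9 genes in Des-/- swim and 3 peaks of 3 genes in Des+/+ basal. Of these 70 peaks, 43 were labelled 3' UTR.

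Myh6 had exon-labelled peaks in 3 of the 4 lists. Des+/+ swim listed 5, at heights of 21 in exon 33, 20 in exon 34, 15 in exon 3 of a transcript of 4 exons, 11 in exon 23 and 10 in exon 37. Des-/- basal listed 3, at 18 in exon 33 and at 8 in exons 34 and 26. Des+/+ basal listed 1, at 11 in exon 33. Des-/- swim listed no exon-labelled peak in the gene, only a promoter-labelled one at 8, with 100% of its bases in exons. Exon 33 was thus the position shared by the 3 lists, and it was the highest Myh6 exon peak in each. Des+/+ swim also had 4 promoter-labelled peaks in the gene, which were not chosen by an exon label. Exons made up 50%, 52.8%, 67.7% and 90.3% of their bases, and 26.9% of the gene.

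Actc1, the cardiac alpha-actin gene, had 4 peaks in Des+/+ swim, at 12 in the 3' UTR, 12 in exon 6, 10 in exon 5 and 11 in exon 4. Des-/- basal had 1, at 13 in the 3' UTR, and the other 2 lists had none. In Des+/+ swim the peaks covered 45.1% of the exon bases of the gene. The map of both genes shows peaks sitting over exons of the downstream part, with no lamin A/C peak under these limits in the upstream part of either gene.

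**Figure D3:**
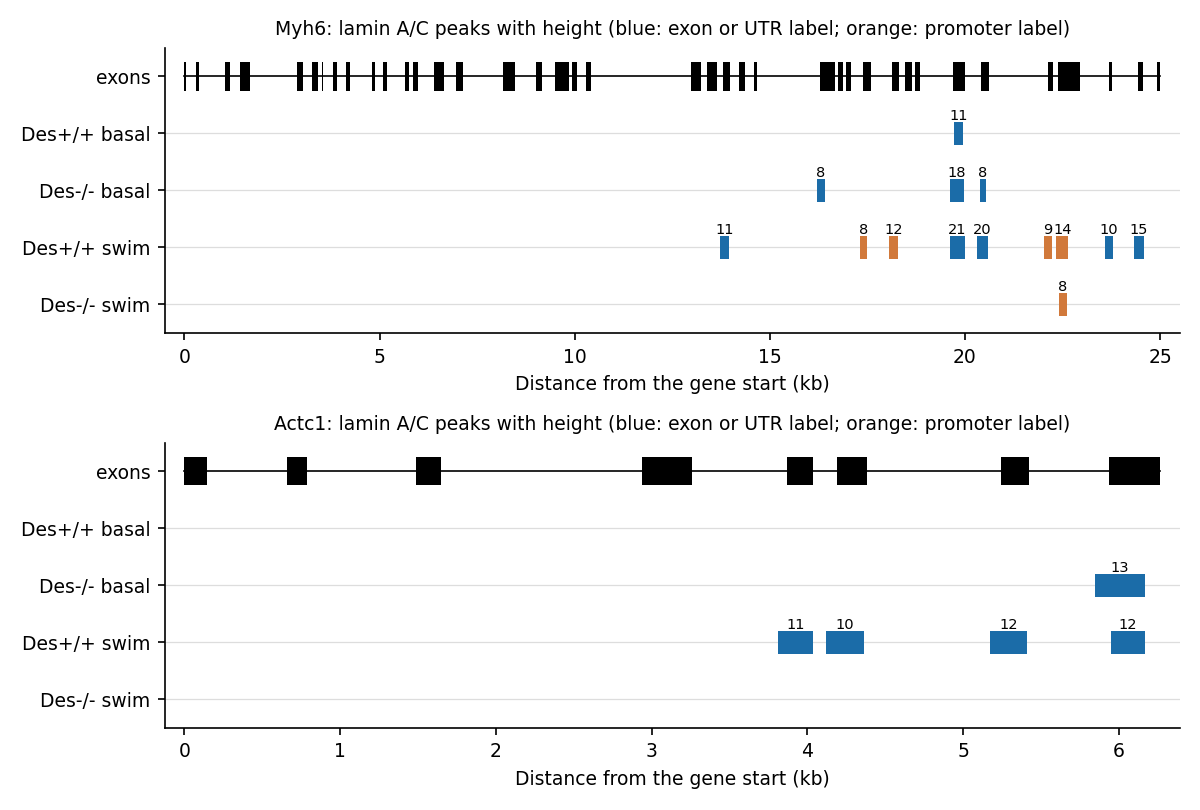
Lamin A/C peaks in Myh6 and Actc1 in the 4 lists (rows), drawn to scale by distance from the gene start in kb (horizontal axis) under the merged exons (black), with the height above each peak. Des+/+ swim has 9 peaks in Myh6, of which 5 carry an exon label, and 4 in Actc1.

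Mb encodes myoglobin, the oxygen store of muscle. Its 3' UTR peak stood at 29 in Des+/+ swim and at 16 in Des-/- basal, and a 5' UTR peak stood at 16 in Des+/+ swim, with none in the other 2 lists. The 3' UTR of Atp2a2, the calcium pump of the sarcoplasmic reticulum, had a height of 12 in Des+/+ swim, 12 in Des-/- basal and 8 in Des+/+ basal. Tnnt2, cardiac troponin T, had a 3' UTR peak of 12 in Des+/+ swim and 10 in Des-/- basal. These 3 genes were absent from Des-/- swim among exon and UTR peaks.

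Further muscle genes were found in 1 list each. In Des+/+ swim these were Tpm1 (tropomyosin) at 10 and, by the exon beneath the peak, Pln (the inhibitor of the calcium pump) at 10 and Myoz2 (a Z-disc protein) at 8, with Lmod2 (an actin filament nucleator) at the lowest height. In Des-/- basal they were Tnnc1 (troponin C) at 9 and Hspb7 (a small heat shock protein of muscle) at 9. Genes of fuel use and mitochondria were found in Des+/+ swim: Lpl (lipoprotein lipase) at 11 and 12, Slc25a4 (the ADP/ATP carrier) at 10, Cd36 (a fatty acid transporter) at 9 and Vdac1 (the outer membrane channel) at 9. Of the fixed mitochondrial list, Mb alone had peaks in 2 lists.

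A few genes of other cells of the heart stood beside them. From the fixed lists these were 3 of 25 fibroblast and matrix genes, 1 of 17 endothelial genes and 1 of 10 smooth muscle and pericyte genes. Sparc, a matrix protein of fibroblasts and other stromal cells, had a 3' UTR peak of 14 in Des+/+ swim, 9 in Des-/- swim and 8 in Des-/- basal. Fabp4, a fatty acid binding protein of capillary endothelium and fat, had a 3' UTR peak of 16 in Des-/- swim, 15 in Des+/+ swim and 11 in Des+/+ basal, and none in Des-/- basal. Dcn (decorin) was listed at 9 in Des+/+ swim, where Col4a1 (collagen IV) and Rgs5 (a pericyte marker) also appeared at the lowest height. Tmsb4x, the actin-binding thymosin beta 4, had a 3' UTR peak of 18 in Des+/+ swim and 9 in Des-/- swim. Sparc, Fabp4 and Tmsb4x thus had a peak after swimming in both genotypes. The part of non-muscle cells in the lists was not tested.

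The fixed gene lists gave the following counts by nearest start. Contraction genes with an exon or UTR peak numbered 5 of 40 in Des+/+ swim, 4 in Des-/- basal and 0 in the other 2 lists, which was 4.17% and 5.56% of the member genes against 1.76% and 1.50% of all genes named by those lamin A/C lists. The whole lists of Des-/- swim and Des+/+ basal named few such genes too, with 1 among 283 and 0 among 163. By the gene of the exon the counts were 6, 4, 1 in Des+/+ basal and 0 in Des-/- swim. Mitochondrial metabolism had 5 of 40 genes over all lists, fibroblast and matrix 3 of 25, translation and housekeeping 3 of 21 (Actb and Tubb5 among them), endothelial 1 of 17, smooth muscle and pericyte 1 of 10, and stress and natriuretic 1 of 19. Calcium handling had 0 of 16 by nearest start and 2 by the gene of the exon. Leukocyte genes (20), red blood cell genes (7) and genes of the lamina and its cytoskeletal link (14) had no exon or UTR peak. Over all lamin A/C peaks under the same limits the counts were 9 for contraction, 6 for mitochondrial metabolism, 5 for fibroblast and matrix, 7 for translation and housekeeping, 3 for stress and natriuretic, 2 for the lamina, 1 each for calcium handling, red blood cells, endothelium and smooth muscle, and 0 for leukocytes.

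Housekeeping genes of the cytoskeleton were seen in the same lists. Actb (beta-actin) had peaks of 9 and 12 in Des+/+ swim and 9 in Des-/- basal. Tubb5 (beta-tubulin) was listed at 12 in Des+/+ swim.

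Processed pseudogenes were the largest class in Des+/+ swim, with 64 peaks in 59 pseudogenes (45.1%, 37.1 to 53.3%). There were 27 peaks in Des-/- basal (27.3%, 19.5 to 36.8%), 9 in Des-/- swim (22.5%, 12.3 to 37.5%) and 2 of 10 in Des+/+ basal. For 90 of the 102 peaks the summit window matched a coding transcript of another gene over at least 150 bases at 90% identity or more. Their median identity was 99%, and 21 windows were identical to the parent. In 80 of the 90 the match ran across a junction between 2 parent exons with at least 10 bases on each side.

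The parents were 56 genes, and most serve translation. Ribosomal protein genes were the parent of 48 of the 90 peaks and elongation factor genes of 15. Eef1a1 alone was the parent of 12 peaks in 6 pseudogenes and 3 lists. Its copy Gm13456 carried 2 peaks in Des+/+ swim, at 35 and 25, and 2 at the same places in Des-/- basal, at 12 and 11. Tpt1-ps3, near Prok2 and identical over its window to Tpt1 (the translationally controlled tumour protein), had a peak of 22 in Des+/+ swim and none in the other lists. Rpl36a-ps2, near Bcl10, had peaks of 15 in Des+/+ swim, 11 in Des-/- basal and 10 in Des-/- swim. Gm4366, near Nucb2 and copying the elongation factor gene Eef1g, had 3 peaks in Des+/+ swim, at 10, 8 and 8.

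Further members lay in or beside gene families that stand side by side. For the families here and below, the matching shares over all lamin A/C peaks are not given. The lists held from 188 to 831 peaks, so these counts do not show a family to be particular to exon and UTR peaks. Speer4 genes and their neighbours, a family of testis-expressed genes on chromosome 5, held some of the tallest peaks of Des-/- basal, by nearest start with Speer4c at 16, 16 and 19, Speer4d at 19 and 17 and Speer4e at 16. Des+/+ swim had 20 and 21 in Speer4c, and Des-/- swim had 14 in Speer4c and 13 in Speer4e. Their inputs, between 4 and 9, were also higher than the median of 2. Dux, a gene of the early embryo on chromosome 10, had peaks of 20 and 13 named for it in Des-/- basal only.

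Immunoglobulin heavy chain V segments held 12 exon peaks in Des-/- basal at heights of 8 to 16, 1 in Des+/+ swim at 10 and none in the other lists. At Ighv1-28 and Ighv8-5, a lamin A/C peak of Des-/- swim that was not a member overlapped the Des-/- basal peak. The following counts take peaks by the gene of the exon or the nearest start. Vomeronasal receptor genes (Vmn2r), which detect pheromones, had 7 peaks in Des+/+ swim, 4 in each Des-/- list and 1 in Des+/+ basal, none above 12. An exon of a gene so named lay beneath 4 of the 7, and another of them lay in Gm9294, a processed pseudogene of Rps4x. Zinc-finger genes had 8 peaks in Des-/- swim, 6 in Des-/- basal and another 6 in Des+/+ swim, from 8 to 16, of which 4, 3 and 5 lay in their exons. Natural killer receptor genes (Klra) had 4 and the Sp110 and Sp140 group 3, all at 8 to 11 in Des-/- basal, with 1 more of the latter at 8 in Des-/- swim.

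Exon and UTR peaks of lamin A/C differed in sequence from those of H3K27Ac. Mostly single-copy sequence was found in 36.6% of the members of Des+/+ swim (29.1 to 44.8%), 40.4% of Des-/- basal (31.3 to 50.3%), 40% of Des-/- swim (26.3 to 55.4%) and 30% of Des+/+ basal (10.8 to 60.3%). For H3K27Ac peaks in exons and UTRs under the same limits the shares were between 92.7% and 93.9%, over 2717 peaks. The other lamin A/C peaks had 40.4%, 31.2%, 33.4% and 51.2%, with intervals that met those of the members in all 4 lists. Masked repeats made up a median of 0.750% of the member windows in Des+/+ swim and 9.25% to 11% in the other lists, against 30% to 34.8% of the windows of other lamin A/C peaks. Reads of 100 bases that fit several places are placed at one of them by the aligner, and the part of this in the peaks was not tested.

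**Figure D4:**
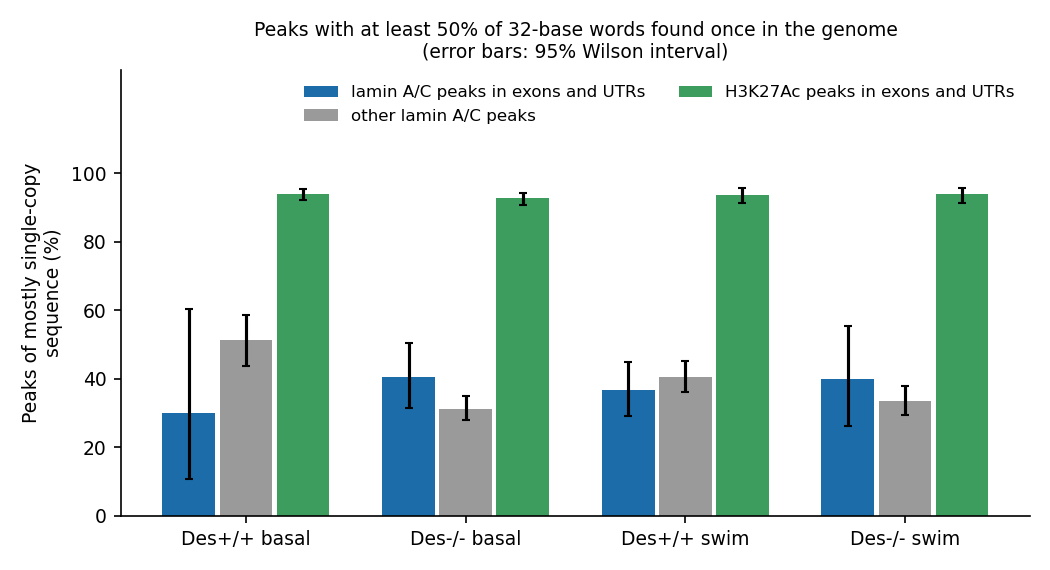
Percent of peaks with mostly single-copy sequence at the summit (vertical axis) in each list (horizontal axis) for lamin A/C exon and UTR peaks (blue), other lamin A/C peaks (grey) and H3K27Ac exon and UTR peaks (green), with 95% Wilson intervals. H3K27Ac peaks stand above 92% in every list, and lamin A/C exon and UTR peaks at 30% to 40.4%.

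Few places were shared between lists. The 291 peaks merged to 253 places, of which 223 (88.1%) held a member in 1 list, 23 in 2, 6 in 3 and 1 in 4. The matching share of places over all lamin A/C peaks is not given here. Of the 23, 17 were shared by Des-/- basal and Des+/+ swim, the lists with the most members. No lamin A/C peak of the other genotype overlapped 135 of 142 members in Des+/+ swim (95.1%), 94 of 99 in Des-/- basal (94.9%), 34 of 40 in Des-/- swim (85%) and 6 of 10 in Des+/+ basal (60%). Over all lamin A/C peaks of those lists the shares were 93.9%, 97.6%, 93.3% and 89.8%, so the first 2 lay near the background. The shares of Des-/- swim (interval 70.9 to 92.9%) and Des+/+ basal (31.3 to 83.2%, on 10 peaks) were lower than it. That background is itself a count, 473 of 507 peaks in Des-/- swim and 158 of 176 in Des+/+ basal, and it includes the members. The gap was not tested. Against the other condition of the same genotype, 136 members of Des+/+ swim, 91 of Des-/- basal, 34 of Des-/- swim and 5 of Des+/+ basal had no partner (95.8%, 91.9%, 85% and 50%), beside 97.0%, 94.0%, 90.9% and 90.3% of all peaks.

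The place found in all 4 lists lay in Chd9, a chromatin remodeller gene, at chr8:90890972-90891277 of GRCm38. It reached heights of 14 (basal) and 16 (swim) in Des+/+, and of 17 (basal) and 13 (swim) in Des-/-, each with an input of 1, and its edges agreed within 12 bp. The exon beneath is exon 3 of 3 of a short transcript, and none of its 32-base words occurred once in the genome. The places found in 3 lists were the exon 33 of Myh6, the 3' UTRs of Atp2a2, Fabp4 and Sparc, Rpl36a-ps2, and an exon of Serinc3 named for 0610039K10Rik at 8 in Des+/+ basal and at 9 in both Des-/- lists. In Sparc the peaks of Des-/- basal and Des-/- swim did not overlap each other, and were joined by the longer peak of Des+/+ swim.

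H3K27Ac was compared for each gene with the list of the same genotype and condition. By nearest start, a peak was present for 51 of 120 member genes in Des+/+ swim (42.5%, 34.0 to 51.4%), 27 of 72 in Des-/- basal (37.5%, 27.2 to 49.0%), 17 of 38 in Des-/- swim (44.7%, 30.1 to 60.3%) and 4 of 10 in Des+/+ basal (40%, 16.8 to 68.7%). Over all genes that those lamin A/C lists name, the shares were 30.4%, 31.8%, 25.8% and 27.6%. The deposited annotation named none of the 102 pseudogene peaks for its pseudogene, so the gene of the exon was read for H3K27Ac only in coding genes.

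Where present, the highest H3K27Ac peak of a member gene had a median height of 27 in Des+/+ swim and 41.5 in Des+/+ basal. In Des-/- it was 28 after swimming and 31 at rest. All genes with an H3K27Ac peak had medians of 23, 28, 27 and 29 in the same order. Member genes stood above that median in 36 of 51, 4 of 4, 9 of 17 and 15 of 27.

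The classes differed in H3K27Ac. Genes of single-copy exons had an H3K27Ac peak in 25 of 30 in Des+/+ swim (83.3%, 66.4 to 92.7%), 13 of 19 in Des-/- basal (68.4%, 46.0 to 84.6%), 8 of 9 in Des-/- swim (88.9%, 56.5 to 98.0%) and 3 of 3 in Des+/+ basal. All protein-coding genes had shares of 30.2%, 41.8%, 29.9% and 39.6%, below each of these intervals. That set was not limited to single-copy sequence, so it is not a matched background for this class. Genes of repeated coding exons had 8 of 26, 5 of 22, 4 of 11 and 3 of 5. Among muscle genes the highest H3K27Ac peak in Des+/+ swim was 57 for Atp2a2, 37 for Myh6, 29 for Mb, 27 for Actc1, 27 for Tpm1 and 24 for Tnnt2, so that the gene with the tallest lamin A/C peak was not that with the tallest H3K27Ac peak. In Des-/- basal it was 61 for Atp2a2, 44 for Myh6, 34 for Mb, 27 for Actc1 and 28 for Tnnt2. Dcn and Rgs5 had no H3K27Ac peak in Des+/+ swim.

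For processed pseudogenes the parent and the neighbour differed. The parent gene had an H3K27Ac peak for 44 of 61 pseudogene peaks in Des+/+ swim (72.1%, 59.8 to 81.8%), 16 of 19 in Des-/- basal (84.2%, 62.4 to 94.5%), 6 of 8 in Des-/- swim (75%, 40.9 to 92.9%) and 1 of 2 in Des+/+ basal. The gene with the nearest start had one for 14 of 61 (23.0%, 14.2 to 34.9%), 7 of 19 (36.8%, 19.1 to 59.0%), 4 of 8 and 0 of 2. Eef1a1 had an H3K27Ac height of 45 in Des+/+ swim and 75 in Des-/- basal, while Lrp1b, beside its highest copy, was without a peak in both. Several pseudogenes share a parent, so these peaks are not independent.

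**Figure D5:**
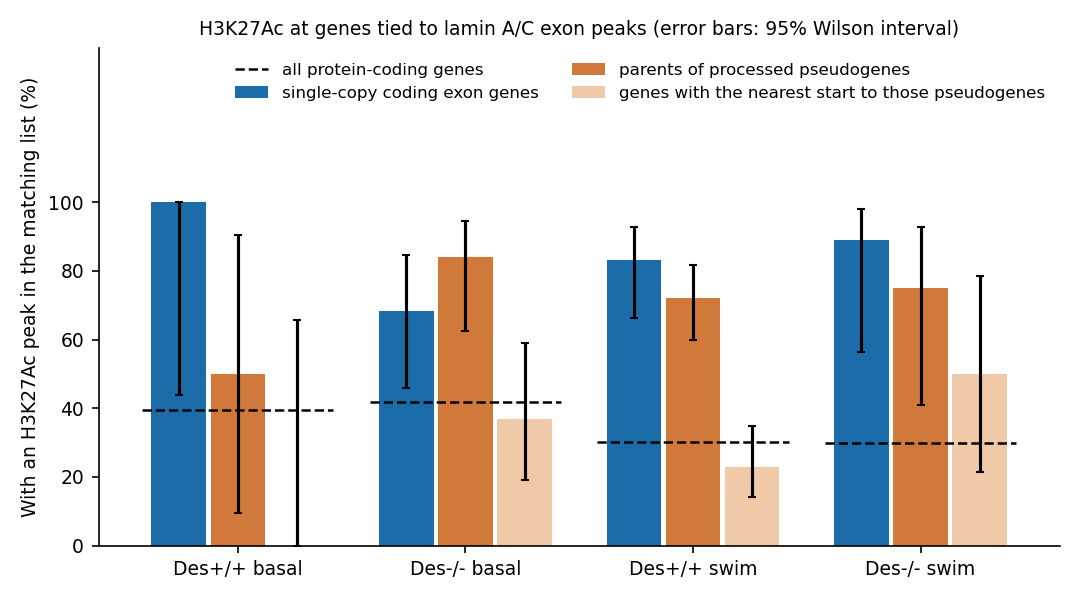
Percent of genes or pseudogene peaks (vertical axis) with an H3K27Ac peak in the list of the same genotype and condition (horizontal axis), for genes of single-copy exon peaks (blue), parents of processed pseudogenes (dark orange) and the nearest genes of those pseudogenes (light orange), with 95% Wilson intervals. The dashed lines give all protein-coding genes, and the parents reach 72.1% in Des+/+ swim against 23.0% for the nearest genes.

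An H3K27Ac peak of the matching list overlapped 6 of the 291 peaks (2.06%, 0.948 to 4.42%). Over all lamin A/C peaks of the 4 lists under the same limits the share was 2.70%, inside that interval. Among them were peaks in Actb and the long non-coding RNA Malat1 in Des+/+ swim, and in Actb, Sparc and Speer4cos in Des-/- basal. None of the 102 pseudogene peaks was among them.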

How the data were processed

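The chromatin was sequenced as 100-base single-end reads. Per the labels and the study's methods, the authors aligned reads to GRCm38 (mm10) with Bowtie2 2.4.4 at default options, sorted them with SAMtools 1.13, called peaks in each library against its input with their own script and annotated them with ChIPseeker 1.36.0. With these options a read that fits several places is kept at one of them. The deposited signal is the height of overlapping reads at a peak in the precipitate and in its input, without scaling, and the deposited score used is the signed distance to the nearest start. The lists also hold the authors' p-values and fold changes, which were not used.

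Peaks of the 4 lamin A/C lists were filtered as described, with 1 library per group. Exon genes came from GENCODE M21, ties going to protein-coding genes. Words of 32 bases in the 200 bp at each summit were counted exactly on both strands of the assembled chromosomes, and member windows were aligned to coding transcripts with BLAST 2.17.0. A partner overlapped by 1 bp. Scripts ran in Python 3.11.15 with pandas 2.3.3 and pysam 0.24.0, and were tested on simulated data. The members, gene lists and classes were chosen with earlier results of these data known. Genes were named if they had 3 or more members in a list, one of its 5 highest members, members in 3 or more lists, or a place in a fixed list, with values for at most 40. Some values that this rule covers are not reported here. The exon genes beneath them, Pln, Myoz2, Tmsb4x, Malat1, the pseudogenes of the printed stretches and the gene families were chosen after their values were seen.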

Additional observations from a re-analysis of the deposited data

Results flagged for a closer look

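Several counts went up with swimming in Des+/+ and down in Des-/-. With 1 library per group the difference between genotypes was not tested. Swim minus basal was 132 exon and UTR peaks in Des+/+ and -59 in Des-/-, 110 and -34 genes with such a peak, 17.0 and -4.45 percentage points of the list, and 5 and -4 contraction genes. By class it was 62 and -18 peaks in processed pseudogenes, 34 and -12 in single-copy coding exons, 24 and -10 in repeated coding exons, and 12 and -19 under other annotation. The whole lamin A/C lists moved the same way, from 188 to 635 peaks in Des+/+ and from 831 to 536 in Des-/-.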

How the results depend on the processing

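No paired analysis was possible because each group has 1 library and no replicate number. Over 124 alternative values, 82 stayed within 1.5 times a count or within the interval of a share or median, and 42 moved. Lists are given in the order Des+/+ basal, Des-/- basal, Des+/+ swim, Des-/- swim. A minimum height of 10 left 5, 50, 88 and 11 members, 5, 34, 75 and 11 genes, and 3, 47, 85 and 8 members without a partner in the other genotype. It gave list shares of 9.80%, 14.6% and 32.4% in the first 3, 8, 9 and 0 genes with 2 or more members in the last 3, and 2 contraction genes in Des-/- basal. A minimum height of 16 left 0, 16, 17 and 3 members, with shares of 0% in Des+/+ basal and 4.55% in Des-/- swim. Single-copy sequence, an alternative chosen after seeing the data, left 3, 40, 52 and 16 members. In Des+/+ basal, any overlap with an exon gave 17 members and leaving out model, microRNA and snoRNA symbols gave 6. An input below 5 gave a share of 9.75% in Des-/- basal. With the gene of the annotated transcript, Des-/- basal had 8 genes with 2 or more members, Des+/+ basal had 1 contraction gene, and the H3K27Ac shares were 18.9% in Des-/- basal and 25.2% in Des+/+ swim. The gene with the most exon bases, also chosen after seeing the data, gave 1 contraction gene in Des+/+ basal and H3K27Ac shares of 18.5% and 26.2%. Both lower shares count pseudogenes, for which the deposited annotation names no peak here. H3K27Ac peaks of at least 30 gave 20.8%, 15% and 21.1% in the last 3 lists. Des+/+ swim had the most members in each of these counts. Library totals were not used here, and the paper describes the read counts of its lamin A/C data as low. Low heights limit what a missing peak can show.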
